A study of Drosophila melanogaster with 8 samples.

Results

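The 88 genes described here encode the proteins of the cytosolic ribosome of Drosophila melanogaster and their paralogs. They are the rows of a table of 16845 genes whose current FlyBase symbol begins with RpL, RpS or RpLP followed by a digit, together with sta, which encodes the small subunit protein RpSA. In all, 93 symbols of the name table fit this rule, and the 5 without a row under their current identifier (RpS10b, RpL27A, RpL31, RpL19 and RpS12) were not analysed here. Of the 88, 47 encode large subunit proteins, 37 encode small subunit proteins and 4 have RpLP symbols, of which RpLP0, RpLP1 and RpLP2 encode the P stalk and RpLP0-like encodes a related protein. The counts come from poly-A RNA-seq of male pupal terminalia, the genitalia and analia, of the genotype yw;+;+. The terminalia were dissected 24 hr or 28 hr after puparium formation (APF). The paper describes incubation of white pre-pupae at 25°C for its fixed samples and does not repeat it for the RNA-seq. Each stage has 4 libraries, each from a different pupa. All animals were males of a single genotype and no mutant or treated group was used, so the only comparison is between the stages. Each library is a whole dissected tissue with several cell types.

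The ribosome translates mRNA into protein and is built from a large and a small subunit, each made of ribosomal RNA and of proteins that are present in 1 copy per subunit, apart from the P stalk. The P stalk is a flexible arm of the large subunit that recruits translation factors. Ribosomal protein genes are transcribed at high levels in nearly every cell, and in Drosophila many mutants that lack 1 functional copy are Minutes, with slow development and thin bristles. Several of the proteins are encoded by more than 1 gene, and some of the additional copies are known in Drosophila mainly from the germline.

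Libraries held between 24534188 and 35795240 counted reads, and the factors of the trimmed mean of M values (TMM), which scale libraries for composition, lay between 0.964 and 1.03. Terminalia transcription factors such as Abd-B, Poxn and cad were detected. Of the listed genes, 13 of 13 were above 1 rpkm in the mean of at least 1 stage. Rpkm is the reads on a gene scaled to its exon length in kilobases and to the library's total count. The paper's atlas, which covers these factors, took the transcription factors most highly expressed in these same data at 28 hr APF. Passing 1 rpkm was therefore fixed in advance. Among other cell types, the summed CPM (counts scaled to the library's total) of the listed genes ran from 137 to 159 at 24 hr APF and from 170 to 226 at 28 hr APF for neurons, where 6 of 7 genes tested higher. They ran from 1434 to 1913 and from 1565 to 1785 for muscle, where 3 of 9 genes tested lower and 5 higher, with log2 fold changes from -1.78 for Mhc to 2.57 for Tm2. They ran from 112.1 to 159.6 and from 115.2 to 122.6 for hemocytes, from 39.6 to 165 and from 35.0 to 78.8 for fat body, where Lsp1gamma alone was called (-1.72, edgeR adjusted p = 0.000137), and from 164 to 204 and from 160 to 185 for testis and germline. No listed marker with a row was at 0 in every library. Most reads in these sums came from Act57B and Act87E for muscle, from crq for hemocytes and from ovo for testis and germline. These sums therefore follow those genes more than the rest of each list. In the mean of all libraries, 8 of the 31 testis and germline genes were above 1 rpkm. Whether the ovo reads came from germline cells was not tested, so this sum does not measure germline RNA. In the testis and germline list betaTub85D was called higher at 28 hr APF, while twe and mia were called lower. Of all tested genes, 17.3% were lower and 15.6% higher. The muscle gene Mhc was low in level, with means of 0.252 rpkm at 24 hr APF and 0.0719 rpkm at 28 hr APF. Tm2 had means of 0.850 and 4.92 rpkm. Rows were matched for 31 of 35 testis and germline symbols, 9 of 10 muscle symbols and 7 of 8 neuron symbols. The part of these cell types in the results that follow was not tested.

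Ribosomal protein genes were among the most highly expressed genes of the terminalia. Their median level was 475 rpkm at 24 hr APF and 423 rpkm at 28 hr APF. At 28 hr APF, 29 of them were among the 100 genes with the highest rpkm and 56 among the top 200. In that stage 75 were at or above 100 rpkm and 5 at or above 1000 rpkm. The 4 highest were RpL41 (1363 ± 43.5 rpkm, SD, n = 4), RpL39 (1339 ± 25.5), RpS25 (1054 ± 41.6) and sta (1049 ± 57.6). RpL41 and RpL39 encode the smallest proteins of the large subunit, and their libraries overlapped at 28 hr APF, from 1310 to 1417 rpkm for RpL41 and from 1315 to 1371 rpkm for RpL39. RpS25 and sta overlapped each other as well and did not overlap RpL41 or RpL39. The exons of the highest pair are short, 320 bases for RpL41 and 288 bases for RpL39, so that their rpkm depends strongly on the annotated length. At the other end, 7 members were below 1 rpkm at both stages, and all 7 are additional copies from gene families.

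From 24 hr to 28 hr APF the ribosomal protein genes fell together by a small amount. Of 81 members with enough reads for the test, 42 were lower at 28 hr APF and 0 were higher by edgeR's quasi-likelihood test at an adjusted p of 0.05, where 17.3% of all 11232 tested genes were lower and 15.6% were higher. No member was higher at an unadjusted p under 0.05 either, and DESeq2 called 46 lower and 0 higher. The fitted change was negative for 79 of 81 members, against 49.4% of all tested genes. The median log2 fold change of the 81 members was -0.12, or -8.04%, while the median of all tested genes was 0.004. Among the 42 called members the fitted fall ranged from 7.17% to 21.6%. The largest was that of the related gene RpLP0-like, and the next was 15.5% for RpL10. No change reached a size of 1.5-fold, and 0 members passed a test against that fold at an adjusted or an unadjusted p of 0.05, where 4.73% of all tested genes passed. In bulk tissue, fewer cells of a type and less RNA per cell cannot be told apart.

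**Figure D1:**
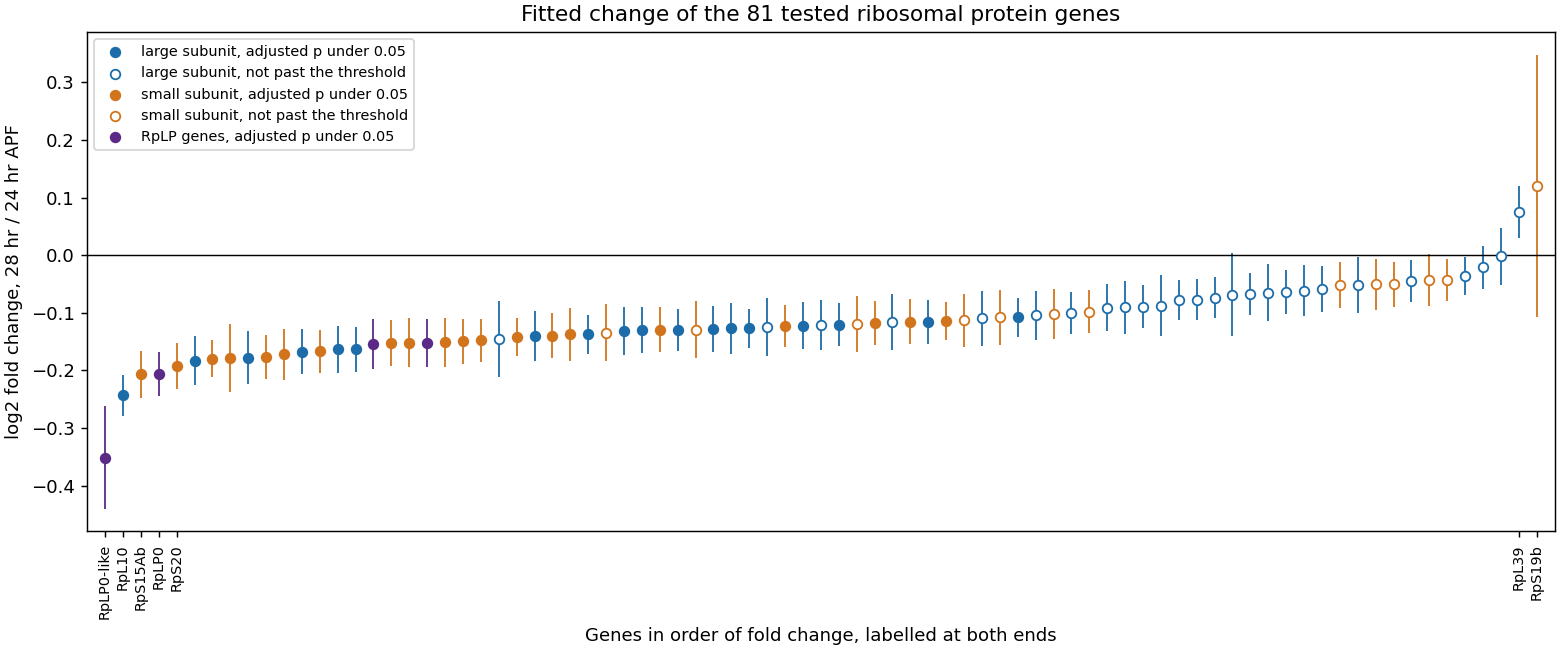
Fitted log2 fold change from 24 hr to 28 hr APF (vertical axis) of each of the 81 tested ribosomal protein genes (horizontal axis, in order of change, with symbols for the 5 lowest and the 2 above 0), with vertical bars for the standard error of edgeR's quasi-likelihood fit on 4 libraries per stage. Filled points passed an adjusted p of 0.05, and 79 of the 81 points lie below 0, with RpL39 and RpS19b above it.

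The number of calls depended on single libraries. Leaving out 1 library at a time gave between 22 and 41 called members. The count was 22 without 24 hr APF replicate 4 and 25 without 28 hr APF replicate 2, and 21 members were called in all 8 such fits. Relative to the mean of all 8 libraries, the median member stood 0.123 higher in log2 CPM in 24 hr APF replicate 4, and between 0.026 and 0.060 higher in the other 24 hr APF libraries. It stood between 0.023 and 0.093 lower in the 4 libraries of 28 hr APF. Every 24 hr APF library was therefore above every 28 hr APF library in this measure. Within a stage, the median SD of members was 0.050 in log2 CPM, against 0.114 for all tested genes and 0.061 for other genes at or above 93.2 rpkm, the 5th percentile of the members' mean levels. Of 872 such non-member genes at that level, 245 (28.1%) were lower and 205 were higher at 28 hr APF, with a median log2 fold change of -0.02.

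Reads on the members took 3.98%, 3.92%, 3.96% and 4.09% of the counts of the 4 libraries at 24 hr APF, and 3.74%, 3.52%, 3.49% and 3.65% at 28 hr APF. All 28 hr APF libraries were below all 24 hr APF libraries, with means of 3.99% ± 0.0740 and 3.60% ± 0.114 (SD, n = 4), a relative change of -9.76%. As a share of counts on protein-coding genes, the means were 4.49% ± 0.0930 and 4.06% ± 0.135, again with no overlap. The share took the same course in the large subunit, from 2.18% ± 0.0396 to 1.99% ± 0.0596, in the small subunit, from 1.62% ± 0.0326 to 1.45% ± 0.0485, and in the 4 RpLP genes, from 0.189% ± 0.00325 to 0.164% ± 0.00678. The ratio of large subunit and RpLP reads to small subunit reads was nearly constant, between 1.461 and 1.470 at 24 hr APF and between 1.476 and 1.493 at 28 hr APF. These ranges do not overlap, but they lie close together.

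**Figure D2:**
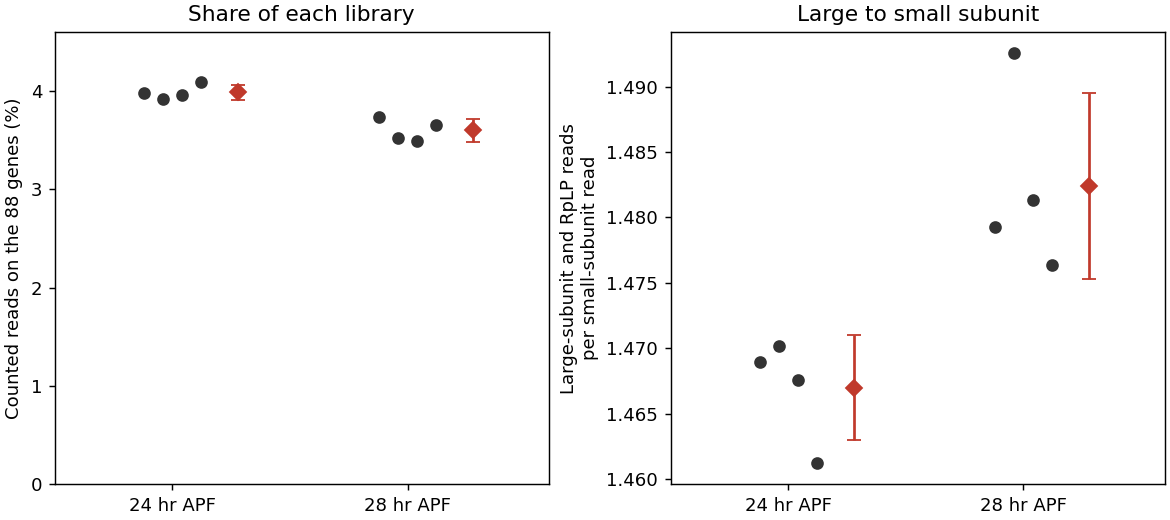
Percent of each library's counted reads on the ribosomal protein genes and the ratio of large subunit and RpLP reads to small subunit reads (vertical axes) at 24 hr and 28 hr APF (horizontal axes). Each black point is 1 library and the red diamond with its bar marks the mean and SD of 4, with the share between 3.92% and 4.09% at 24 hr APF and between 3.49% and 3.74% at 28 hr APF.

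In rpkm, which is scaled by the total count alone, 58 of the 81 tested members had all 4 libraries at 28 hr APF below all 4 at 24 hr APF. Among these members 0 had them above. Of the 10929 tested genes with an exon length, 21.2% lay below and 13.3% above. After scaling by TMM the count of members was 49 below and 0 above, against 18.1% and 15.8% of those 10929 genes. Of the 42 called members 41 did not overlap in rpkm, and the exception was RpS21, a small subunit protein gene with 98.3, 89.0, 104.6 and 107.7 rpkm at 24 hr APF and 87.7, 85.6, 82.6 and 89.8 rpkm at 28 hr APF.

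The 4 RpLP genes were all lower at 28 hr APF, beside 17.3% of all tested genes. RpLP0 encodes the base of the stalk, which anchors the small acidic proteins RpLP1 and RpLP2. RpLP0 (chromosome arm 3L, 22075867 to 22077487, plus strand, in the later Ensembl annotation on the BDGP6 assembly) had 520.1, 507.6, 501.2 and 517.6 rpkm at 24 hr APF and 455.4, 434.0, 408.2 and 438.9 rpkm at 28 hr APF. Every library of the later stage was below every library of the earlier one, with a log2 fold change of -0.21 (SE 0.037, edgeR adjusted p = 0.00184). RpLP1 had 1128, 1062, 1045 and 1092 rpkm at 24 hr APF and 1016, 942.7, 916.2 and 931.9 rpkm at 28 hr APF. RpLP2 had 543.8, 584.3, 569.4 and 596.0 rpkm and then 530.6, 492.3, 493.9 and 503.2 rpkm. Neither gene overlapped between the stages, and both fell by 0.15 on the log2 scale (edgeR adjusted p = 0.0206 for RpLP1 and 0.0170 for RpLP2).

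The largest fall among all 81 members was that of RpLP0-like (2R, 10098518 to 10099590, minus strand), whose yeast counterpart Mrt4 is a nucleolar assembly factor that holds the place of P0 on the immature large subunit. It had 28.4, 34.4, 34.3 and 27.8 rpkm at 24 hr APF and 23.4, 23.5, 21.4 and 27.3 rpkm at 28 hr APF. The stages did not overlap, although replicate 4 of 28 hr APF came close to the lowest libraries of 24 hr APF. The log2 fold change was -0.35 (SE 0.089, edgeR adjusted p = 0.0121).

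In the large subunit 18 of 44 tested genes were lower and 0 higher, beside 17.3% and 15.6% of all tested genes. The median log2 fold change of this subunit was -0.11. RpL10 (3L, 23093190 to 23095471, minus strand), known from yeast as a late-joining protein next to the peptidyl transferase centre, fell the most. It had 568.4, 562.7, 572.9 and 595.6 rpkm at 24 hr APF and 488.2, 472.6, 464.2 and 476.6 rpkm at 28 hr APF. The stages were well separated, and the log2 fold change was -0.24 (SE 0.036, edgeR adjusted p = 0.000528). RpL40, which is made as a fusion with ubiquitin, had 1081, 1048, 1061 and 1159 rpkm and then 1033, 939.7, 914.6 and 1018 rpkm. The stages of RpL40 did not overlap, but its log2 fold change of -0.13 did not pass the test (edgeR adjusted p = 0.0810).

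RpL39 (2R, 24061853 to 24062431, minus strand) was one of 2 members with a positive fitted change. It had 1268, 1231, 1337 and 1362 rpkm at 24 hr APF and 1323, 1349, 1371 and 1315 rpkm at 28 hr APF. The stages overlapped, and the log2 fold change of 0.08 (SE 0.045) did not pass the test (edgeR adjusted p = 0.235). Its annotated 3' neighbour RpL12 lies on the opposite strand and the genes share 8 bases, while RpL12 itself fell by 0.11 on the log2 scale (edgeR adjusted p = 0.0333), a call held in 2 of the 8 fits that left out a library. RpL41, the highest member, had a log2 fold change of -0.07 (edgeR adjusted p = 0.183).

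In the small subunit 20 of 33 tested genes were lower and 0 higher, beside 17.3% and 15.6% of all tested genes. The median log2 fold change of this subunit was -0.13. RpS15Ab (2R, 10821676 to 10822399, plus strand), 1 of 2 copies that encode the protein S15A, had 108.0, 109.9, 111.5 and 108.0 rpkm at 24 hr APF and 98.5, 94.7, 86.4 and 91.2 rpkm at 28 hr APF. RpS20 (3R, 20822181 to 20823356, plus strand), a protein of the small subunit head, had 531.1, 505.4, 509.2 and 533.1 rpkm and then 449.9, 432.2, 431.6 and 467.1 rpkm. The stages of both genes were separate, and the log2 fold changes were -0.21 for RpS15Ab (SE 0.040, edgeR adjusted p = 0.00278) and -0.19 for RpS20 (SE 0.040, edgeR adjusted p = 0.00399).

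RpS3, which sits at the site where mRNA enters the subunit, fell by 0.14 on the log2 scale (286 ± 7.87 to 254 ± 10.3 rpkm, SD, n = 4, edgeR adjusted p = 0.0205). RpS6, the substrate of the S6 kinase of the Tor pathway, fell by 0.12 on the log2 scale (469 ± 10.03 to 422 ± 12.98 rpkm, edgeR adjusted p = 0.0274). RpS27A, the other ubiquitin fusion, fell by 0.13 on the log2 scale (846 ± 27.3 to 757 ± 25.4 rpkm, edgeR adjusted p = 0.0274). For sta the values were 1203, 1142, 1132 and 1225 rpkm at 24 hr APF and 1108, 987.8, 1012 and 1086 rpkm at 28 hr APF. They did not overlap, yet the log2 fold change of -0.13 missed the threshold (edgeR adjusted p = 0.0613). RpS25, another of the highest genes, had a log2 fold change of -0.04 and overlapping stages (edgeR adjusted p = 0.409). Of the 8 fits that left out a library, the call held in 6 for RpS3, RpS27A and RpLP1, in 5 for RpS6 and in 2 for RpS21.

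Gene families with more than 1 copy allow a comparison of the copies within a library. For each family the share of the family's rpkm that came from the other copy was computed, and 7 families had a mean of at least 10 reads on every copy. In 0 of these 7 did the share differ between the stages by an exact two-sided permutation test over the 8 libraries, adjusted over the 7 families, and 0 had an unadjusted p under 0.05. The smallest p the design allows is 0.0286, and a single family with fully separate stages would have reached an adjusted p of 0.200. The test could therefore not pass any family on its own, and the shares are given as values.

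The family nearest to the threshold was RpL34, a large subunit protein with copies RpL34a (3R, 26058420 to 26059267) and RpL34b (3R, 9400237 to 9401226). RpL34b took 40.7%, 42.7%, 41.8% and 40.3% of the family's rpkm at 24 hr APF and 42.2%, 43.8%, 44.3% and 46.0% at 28 hr APF. The ranges overlapped by 1 library in each stage, and the means were 41.4% ± 1.06 and 44.1% ± 1.56 (SD, n = 4), a difference of 2.67 percentage points that did not pass (exact permutation p = 0.0571, adjusted p = 0.300). RpL34a went from 159 ± 4.86 to 139 ± 3.63 rpkm and fell by 0.16 on the log2 scale (edgeR adjusted p = 0.00887). RpL34b went from 112 ± 2.27 to 110 ± 7.78 rpkm, with a log2 fold change of -0.002 (SE 0.049, edgeR adjusted p = 0.979).

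For the S15A proteins, RpS15Ab took 26.7% ± 0.521 of the rpkm at 24 hr APF and 25.9% ± 0.334 at 28 hr APF (exact permutation p = 0.0857, adjusted p = 0.300, n = 4), and the X-linked copy RpS15Aa was lower too, with a log2 fold change of -0.15 (edgeR adjusted p = 0.0112). RpLP0-like held 5.75% ± 0.715 and 5.21% ± 0.433 of the summed rpkm of RpLP0 and RpLP0-like. RpL24-like, known from yeast Rlp24 as an assembly factor of the large subunit, held 20.03% ± 0.681 and 20.5% ± 0.759 beside RpL24. Neither RpL24 (log2 fold change -0.11, edgeR adjusted p = 0.101) nor RpL24-like (-0.07, edgeR adjusted p = 0.357) passed the test. RpL7-like held 5.10% ± 0.400 and 5.15% ± 0.330 beside RpL7, but 98.8% of its exon bases are shared with another annotated gene on the same strand, so its reads cannot be assigned. RpL7 itself fell by 0.17 on the log2 scale (edgeR adjusted p = 0.00750).

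RpS14a (X, 7933742 to 7934677) and RpS14b (X, 7934898 to 7935792) lie next to each other on the same strand and encode the same kind of protein. Their split of reads is uncertain wherever their sequences match. RpS14b took 33.7% ± 0.303 of the family's rpkm at 24 hr APF and 33.6% ± 0.607 at 28 hr APF, and neither copy passed the test, with log2 fold changes of -0.04 for RpS14a and -0.05 for RpS14b (edgeR adjusted p = 0.505 and 0.358). RpS19b, known in Drosophila from the germline, had between 61 and 94 reads per library and held 2.24% ± 0.676 and 2.67% ± 0.536 beside RpS19a. It was the second member with a positive fitted change, 0.12 (SE 0.228, edgeR adjusted p = 0.729), while RpS19a fell by 0.15 on the log2 scale (edgeR adjusted p = 0.0141).

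**Figure D3:**
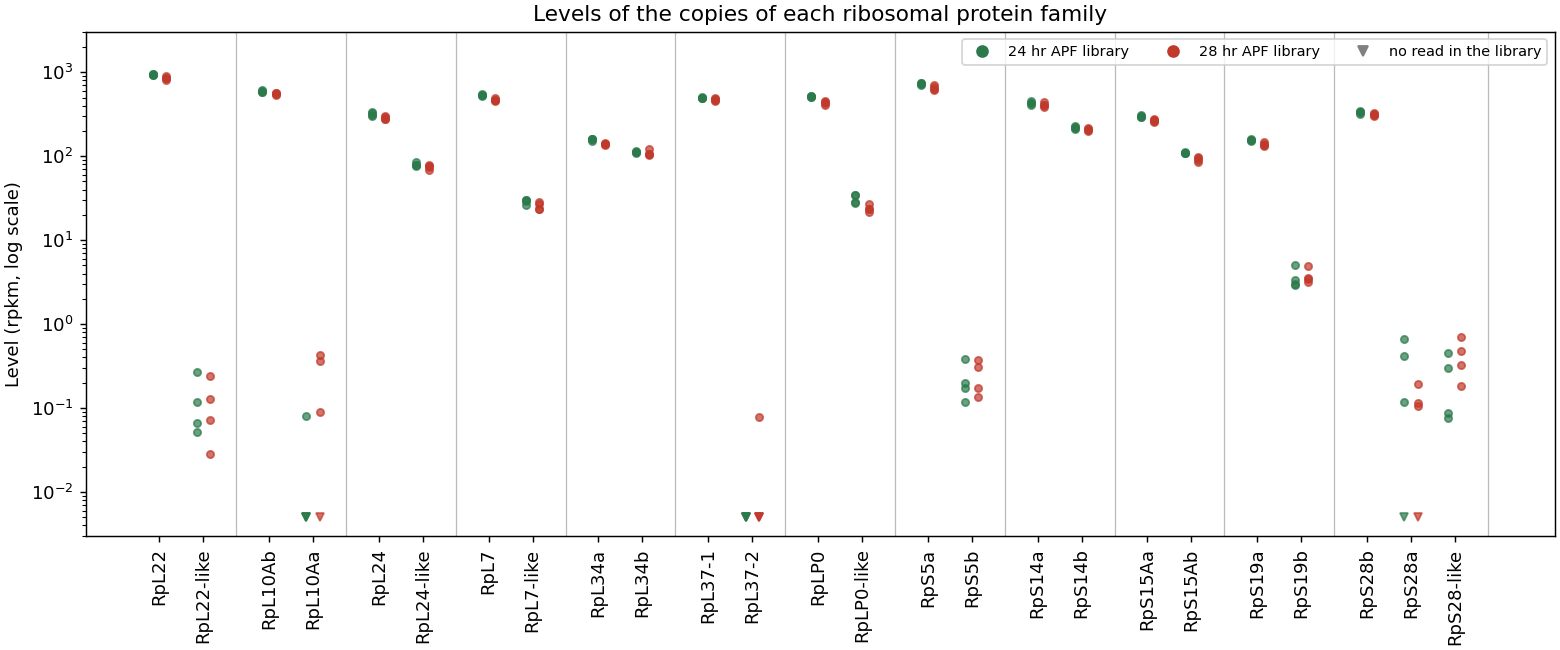
Level in rpkm (vertical axis, log scale) of every copy of each gene family (horizontal axis, families divided by vertical lines) in each library, green for 24 hr APF and red for 28 hr APF, with a triangle where a library had no read. RpL34a and RpL34b lie close together, between 103 and 162 rpkm, while RpS19b lies far below RpS19a, between 2.89 and 5.08 rpkm.

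The remaining additional copies were nearly silent. RpL22-like, known from the male germline, had 2, 2, 4 and 12 reads at 24 hr APF and 5, 1, 9 and 3 reads at 28 hr APF, which was 0.0134% and 0.0140% of the rpkm of RpL22 and its copy. RpS5b had between 4 and 10 reads in every library, or 0.0298% and 0.0382% beside RpS5a, and RpS10a had between 4 and 14 reads. RpS28a had between 0 and 5 reads and RpS28-like between 1 and 8, together 0.159% and 0.165% of a family dominated by RpS28b. RpL37-2 had 1 read in 1 library of 28 hr APF and 0 in the others, beside 498 ± 7.03 and 475 ± 16.3 rpkm of RpL37-1, whose log2 fold change of -0.04 did not pass (edgeR adjusted p = 0.452). A count of 0 allows up to 3 reads. The main copies RpL22 (log2 fold change -0.10, edgeR adjusted p = 0.0601), RpL10Ab (-0.08, adjusted p = 0.121) and RpS28b (-0.05, adjusted p = 0.363) did not pass either. RpS5a fell by 0.14 on the log2 scale (edgeR adjusted p = 0.0406), a call held in 4 of the 8 fits that left out a library.

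RpL10Aa had 2, 0, 0 and 0 reads at 24 hr APF and 9, 2, 10 and 0 reads at 28 hr APF. The reads sat in replicates 1 and 3 of 28 hr APF above all, while replicate 4 had none. Several late testis transcripts, named after their values were seen, were also high in replicates 1 and 3. The sperm tail gene Mst98Ca had 0 reads in each 24 hr APF library and 27, 15, 54 and 1 reads at 28 hr APF, and the testis tubulin betaTub85D had 11, 12, 25 and 11 reads and then 110, 41, 130 and 6 reads. Others on the list did not share this order: at 28 hr APF soti had 12, 17, 9 and 2 reads, fzo had 33, 47, 91 and 91, and sa had 80, 96, 40 and 79. Of the 31 listed genes, 15 had their highest CPM at 28 hr APF in replicate 3, 7 in replicate 1, 5 in replicate 2 and 3 in replicate 4. Of the 12 testis and germline genes tested, 2 were lower and 1, betaTub85D, was higher (edgeR adjusted p = 0.0398). Of all tested genes, 17.3% were lower and 15.6% higher. The part of testis RNA in the reads of RpL10Aa was not tested.

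A comparison by chromosome arm was chosen after the values were seen and is given without a test. Of 14 X-linked members, 4 were lower and the median log2 fold change was -0.07, and of 67 tested autosomal members, 38 were lower with a median of -0.13. Medians over all tested genes were 0.006 for the X and 0.003 for the autosomes, with 279 of 1778 and 1609 of 9145 genes lower. With scaling by total count alone, 7 of 14 X-linked members (median -0.10) and 53 of 67 autosomal members (median -0.16) were lower. Reads on X-linked members made up between 20.22% and 20.55% of member reads at 24 hr APF and between 20.55% and 20.81% at 28 hr APF. The X median stood 0.056 above the autosomal median, 0.029 without 24 hr APF replicate 4 and 0.036 without 28 hr APF replicate 3. The medians of arms 2L, 2R, 3L and 3R lay between -0.13 and -0.12.

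**Figure D4:**
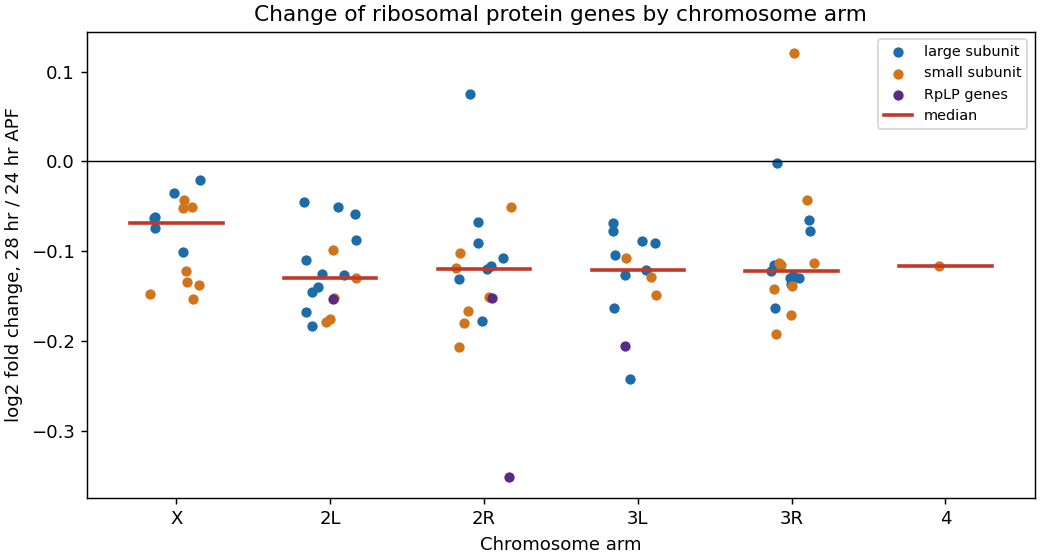
Fitted log2 fold change from 24 hr to 28 hr APF (vertical axis) of the tested ribosomal protein genes by chromosome arm (horizontal axis), coloured by subunit, with a line at the median of each arm. The X median of -0.07 lies above the medians of the major autosomal arms, between -0.13 and -0.12.

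Ribosomal protein genes are known hosts of small nucleolar RNAs (snoRNAs), which guide the modification of ribosomal RNA and are processed from introns. In the BDGP6 annotation 26 members (29.5%) carry a snoRNA gene within an intron, against 0.543% of all protein-coding genes, and they hold 66 snoRNA genes. RpS5a alone holds 14. Of the 26 hosts, 13 were lower with a median log2 fold change of -0.12, and of the 55 tested members without a snoRNA gene, 29 were lower, also with a median of -0.12. Of the 66 snoRNA genes in member introns, 13 (19.7%) were lower with a median of -0.13, near the 17.3% of all tested genes. The fitted change was negative for 63 of the 66, against 49.4% of all tested genes. Whether these reads come from snoRNAs or from unspliced RNA of the hosts was not tested. Of 164 other snoRNA genes, 22 were lower and 2 higher, also with a median of -0.13, and 131 had a negative change.

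Genes that act around the ribosome were read from the same fit. Not every listed symbol matched a row: 58 of 71 did for ribosome biogenesis, 41 of 43 for translation factors and 25 of 29 for regulators. Among the symbols without a match were eEF1alpha1, eEF5, Tor and S6k. Of the 4 pathway lists, the median farthest from 0 was that of ribosome biogenesis, the nucleolar pathway that makes and processes ribosomal RNA and assembles the subunits. Of 58 tested genes, 36 were lower and 1 was higher, with a median log2 fold change of -0.23, where 17.3% of all tested genes were lower. The gene nop5, a core protein of box C/D snoRNA particles, had 35.9, 34.8, 35.8 and 36.8 rpkm at 24 hr APF and 25.7, 25.3, 21.5 and 24.7 rpkm at 28 hr APF. Its stages were far apart, with a log2 fold change of -0.53 (SE 0.052, edgeR adjusted p = 4.2e-05). Nopp140, a nucleolar chaperone of snoRNA particles, fell by 0.41 on the log2 scale (edgeR adjusted p = 0.000121), and Nlp, a nucleoplasmin-like histone chaperone, fell by 0.32 on the log2 scale (343 ± 15.8 to 269 ± 17.6 rpkm, edgeR adjusted p = 0.000358). Non1, a nucleolar GTPase, had a log2 fold change of -0.07 (edgeR adjusted p = 0.199). The 1 higher gene, pes (0.22, edgeR adjusted p = 0.0185), encodes the scavenger receptor peste, which is not a ribosome biogenesis factor and shares only its symbol with the factor meant by the list.

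Translation factors bring tRNA and mRNA to the ribosome and drive its steps. Of 41 tested, 13 (31.7%) were lower and 0 higher, with a median of -0.08, beside 17.3% and 15.6% of all tested genes. At an unadjusted p under 0.05 there were 18 lower and 1 higher, while DESeq2 called 15 lower and 0 higher. The subunit eIF2gamma, part of the factor that brings the initiator tRNA, fell by 0.23 on the log2 scale (97.6 ± 1.55 to 81.2 ± 5.66 rpkm, edgeR adjusted p = 0.00178). The eIF3 proteins eIF3e and eIF3j, which act on the small subunit in initiation, were lower, with log2 fold changes of -0.20 and -0.23 (edgeR adjusted p = 0.00246 and 0.00280). The abundant elongation factor eEF2, which drives translocation, had a log2 fold change of -0.11 (edgeR adjusted p = 0.0914), and pAbp, which binds poly-A tails, had 0.08 (edgeR adjusted p = 0.177).

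Proteins of the mitochondrial ribosome, which are encoded by separate nuclear genes, showed 13 lower and 0 higher of 71 tested, with a median of -0.10. At an unadjusted p under 0.05 there were 21 lower and 1 higher, and DESeq2 called 13 lower and 0 higher. The number lower was 8 without 24 hr APF replicate 1 and 8 without 28 hr APF replicate 2. With all libraries, the share of 18.3% lower genes is close to the 17.3% of all tested genes. The genes with the smallest adjusted p, mRpL47, mRpS35 and mRpL38, were lower, with log2 fold changes of -0.20, -0.33 and -0.22 (edgeR adjusted p = 0.00560, 0.00576 and 0.00697), while mRpL53 had the highest rpkm and a log2 fold change of 0.11 (edgeR adjusted p = 0.0755), but all of its exon bases are shared with another annotated gene, so its reads cannot be assigned.

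Regulators of ribosomal protein genes and of translation were divided. Of 25 tested, 7 (28.0%) were lower and 2 higher, with a median log2 fold change of 0.03, beside 17.3% and 15.6% of all tested genes. Dref, which binds promoter elements of growth and replication genes, had 53.9, 54.4, 52.3 and 56.2 rpkm at 24 hr APF and 36.4, 35.8, 31.6 and 34.4 rpkm at 28 hr APF. Its stages were far apart, with a log2 fold change of -0.62 (SE 0.047, edgeR adjusted p = 8.95e-06). The related ATPases rept and pont, which act in chromatin remodelling and in the assembly of snoRNA particles, were lower, with log2 fold changes of -0.56 and -0.32 (edgeR adjusted p = 5.23e-05 and 0.000559).

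Myc, the growth regulator that activates ribosome biogenesis genes, had 8.755, 7.765, 8.772 and 9.124 rpkm at 24 hr APF and 6.73, 7.08, 6.11 and 7.51 rpkm at 28 hr APF. Its stages did not overlap and its log2 fold change was -0.30 (SE 0.066, edgeR adjusted p = 0.00624). The 2 higher genes, named after their values were seen in the case of Mnt, were Mnt, the antagonist of Myc in binding to Max (0.31, edgeR adjusted p = 0.00311), and crc, the fly ATF4 (0.21, edgeR adjusted p = 0.00521). In the annotation 61.2% of the exon bases of Myc and 73.5% of those of crc are shared with another gene, and whether the counting used strand is unknown. Rack1, a scaffold protein bound to the small subunit, fell by 0.15 on the log2 scale (205 ± 4.28 to 180 ± 8.51 rpkm, edgeR adjusted p = 0.0199), close to the members' own median. Xrp1, a transcription factor induced when a ribosomal protein gene is lost, and Thor, the binding protein of eIF4E, did not pass, with log2 fold changes of 0.01 (edgeR adjusted p = 0.950) and 0.10 (edgeR adjusted p = 0.568).

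**Figure D5:**
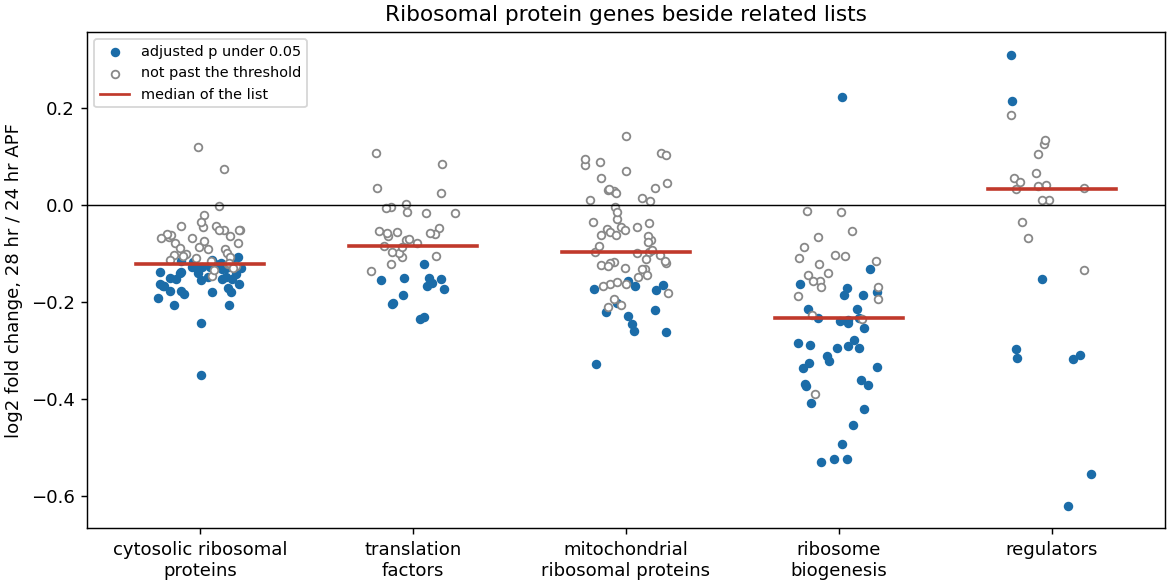
Fitted log2 fold change from 24 hr to 28 hr APF (vertical axis) of each tested gene of 5 lists (horizontal axis), with filled points past an adjusted p of 0.05 and a line at each median. The medians are -0.12 for cytosolic ribosomal proteins, -0.08 for translation factors, -0.10 for mitochondrial ribosomal proteins, -0.23 for ribosome biogenesis and 0.03 for regulators.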

How the data were processed

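Poly-A RNA from male pupal terminalia was sequenced in 4 libraries at 24 hr APF and 4 at 28 hr APF. The authors aligned the reads to dm3 with TopHat2 2.0.13, counted them in unioned exons of FlyBase genes with bedtools, and deposited raw counts per gene and library, with no normalization. Use of strand and treatment of overlapping genes or multiple alignments are not given in the sources used here, so reads of overlapping genes or near-identical copies may be shared. Rpkm was computed here from the deposited counts, total counts and exon lengths of a BDGP6 Ensembl annotation, matched by identifier with no conversion of coordinates.

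Stages were compared with the two-sided quasi-likelihood test of edgeR 4.0.16 (R 4.3.3) on TMM-scaled counts, for genes that passed filterByExpr (minimum 10 reads). P-values were adjusted by Benjamini-Hochberg over every tested gene, with 0.05 as the threshold. Log2 CPM used a prior count of 2. Shares of copies were tested by exact permutation of 8 libraries. The fit was also run on simulated data with planted changes larger than any fitted change of a member. That run does not show how changes of the members' size are called. Alternatives were other normalizations, DESeq2 1.42.0, no filter, a replicate block, a minimum fold of 1.5, other lengths and denominators, and each library left out. Python 3.11.15, pandas 2.3.3 and scipy 1.17.1 did the rest. P-values measure the spread among single pupae. Libraries held at least 24534188 counted reads, and 7 members had too few reads for the test.

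The members and lists were chosen with earlier results of these data known. Named genes were every copy of a family, the 5 largest called changes in each direction without overlap, the 5 highest and lowest levels, 8 members chosen for their roles, and in each pathway list the 3 smallest adjusted p and 2 highest levels, the 2 highest of each marker list, and Myc, Xrp1, Thor and Rack1. One gene that this rule names is not reported here. Motifs in promoters were not analysed here, and no sequences are printed.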

Additional observations from a re-analysis of the deposited data

Results flagged for a closer look

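Within a stage, 138 groups of 4 rpkm values were examined for a single library far from the others, where chance gives about 1 in 20, or 6.9 groups, and 3 were found. RpL37-1, the main copy of its family, had 508 rpkm in replicate 3 of 24 hr APF, while its other 3 values at that stage lay from 494 to 495 rpkm. The larval storage protein gene Lsp2, a fat body marker, had 35.6 rpkm in the same library, against 2.20 to 7.90 rpkm elsewhere at 24 hr APF. Of its exon bases, 84.6% are shared with another gene. The fat body markers Fbp1, Fbp2 and apolpp were also highest in that library at this stage (1.95, 3.03 and 2.53 rpkm), as were Lsp1beta and Yp3. Lsp1alpha, Lsp1gamma, Yp1 and Yp2 were highest in other libraries. The part of fat body in that library was not tested. The transcription factor gene crc had 283 rpkm in replicate 1 of 24 hr APF, below the 320 to 324 rpkm of the remaining replicates.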

How the results depend on the processing

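The number of ribosomal protein genes lower at 28 hr APF was 42 and lay between 39 and 60 under other normalizations, DESeq2 and no filter, with 0 higher throughout. Scaling by total count alone gave 60. It was 0 when tested against a fold of 1.5, where 531 of all genes passed, and between 22 and 41 when each library was left out in turn. With the replicate number as a block it was 28, and with members that share over 10% of exon bases left out it was 39 of 70, an alternative chosen after seeing the data, as were those for pathway lists and chromosomes. The labels do not say whether pupae with the same number belong together. The correlations of same-numbered deviations were -0.161, 0.159, -0.216 and 0.144, against -0.196 to 0.207 for differently numbered ones. These values cannot decide whether libraries with the same number shared a preparation. The cause of the lower counts was not tested.

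Of the pathway lists, mitochondrial ribosomal proteins gave 8 lower genes with the block and between 8 (without 24 hr APF replicate 1 or 28 hr APF replicate 2) and 19 with a library left out, translation factors gave 21 with total counts, and all 4 lists gave 0 against a fold of 1.5, adjusted or unadjusted. The median level at 28 hr APF was 439.2 rpkm with the longest transcript. The change of RpL34b turned to 0.0028, 0.0036 and 0.0031 with the size factors of DESeq2 in edgeR, upper-quartile factors and DESeq2, and that of Xrp1 to -0.0226 with total counts and -0.0008 without a filter. With a library left out, log2 fold changes ranged from -0.0527 to 0.0312 for RpL34b, -0.0373 to 0.3271 for RpS19b, -0.2728 to 1.4391 for Lsp2, -0.0051 to 0.2211 for Thor, -0.0541 to 0.0941 for Xrp1 and -0.1616 to 0.0083 for ovo. The share of the other copy then moved by between -0.143 and 0.175 percentage points for RpL7 and between -0.366 and 0.0997 for RpS14. No family passed with any library left out, a test that single families cannot pass. Reads limit the 7 members that were not tested.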
